A study of Bombyx mori with 4 samples.

Results

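The variety by heat interaction was measured for each silkworm gene as a difference of heat responses. It is the log2 ratio of heat over control in variety 932 minus the same log2 ratio in variety HY, with 1 added to every value and each response centred on its median gene. A positive difference means that the ratio of heat over control was greater in 932. A gene entered with a value of at least 1 in any of the 4 libraries, which 3214 of 5558 gene models had (57.8%). Of the others, 391 were listed at 0 in all libraries and 1953 stayed below 1.

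RNA came from the midgut of Bombyx mori larvae on day 2 of the 5th instar, the last larval stage. The groups were 932 after high temperature, 932 control, HY after high temperature and HY control, with 1 library in each. The labels call 932 tolerant of heat and HY sensitive to it. The sources used here do not give the temperature, the length of the exposure, the sex of the larvae or the number pooled. Values are RPM, the tags of a gene per 1000000 tags of its library, uncorrected for length. Single genes are therefore compared between libraries and not with each other, and sums over genes are read as shares of tags.

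The silkworm midgut is a tube of absorptive and secretory cells around the food bolus. Its cells secrete proteases, lipases and glycosidases, pump protons and potassium to keep the lumen alkaline, and line the lumen with the peritrophic matrix, a mesh of chitin and mucin-like proteins. Heat unfolds proteins, and cells of all kinds answer by making chaperones. An interaction asks whether the varieties answered heat in a different way, which is another question from whether they differed before heat.

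The libraries held 5799074 to 6139297 tags, and the listed models took 11.6% to 18.6% of them. The sum over all listed models was 151859 RPM in 932 heat, 186231 in 932 control, 149969 in HY heat and 115679 in HY control. Before centring, the median response was 0.00 in 932 and 0.27 in HY, so an uncentred difference sits lower for every gene. The 42 midgut markers above 1 RPM, which include the trypsins, pump subunits and peritrophins described below, had a summed level of 11621 RPM in 932 heat, 20053 in 932 control, 13602 in HY heat and 9704 in HY control. None of 3 silk gland markers reached 1 RPM, and the 5 haemocyte markers above that level summed to 1.72 to 6.33 RPM per library. With 1 library per group no difference below was tested. Square brackets hold the exact 95% interval of the difference, computed from tag numbers with nothing added and centred in the same way. It covers counting error alone.

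In 426 genes (13.3% of those measured) heat had a response at least 2-fold greater in 932, and in 366 (11.4%) a response at least 2-fold smaller. The split between them, 53.8% greater, depended on the scaling. Without centring it was 260 greater and 605 smaller, or 30.1% greater, and the median difference moved to -0.25, against 0.02 with centring. The quartiles of all genes lay at -0.56 and 0.61, and 5% lay below -1.43 and 5% above 1.52. At 4-fold there were 66 greater and 58 smaller genes. At 16-fold there were 7 greater and 15 smaller.

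Many of these calls had wide counting intervals. The whole interval lay past 2-fold for 87 genes with a greater response in 932 (2.71%) and for 100 with a smaller one (3.11%). The share called at 2-fold hardly varied with abundance, between 22.5% and 26.3% over 5 ranges of mean RPM. The share with the whole interval past 2-fold was 3.4% below a mean of 1 RPM, 11.0% between 10 and 100 RPM, and 18.8% from 100 RPM on. A value listed at 0 in some library stood behind 134 of the greater calls (31.5%) and 101 of the smaller ones (27.6%), beside 22.0% of all genes measured.

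**Figure D1:**
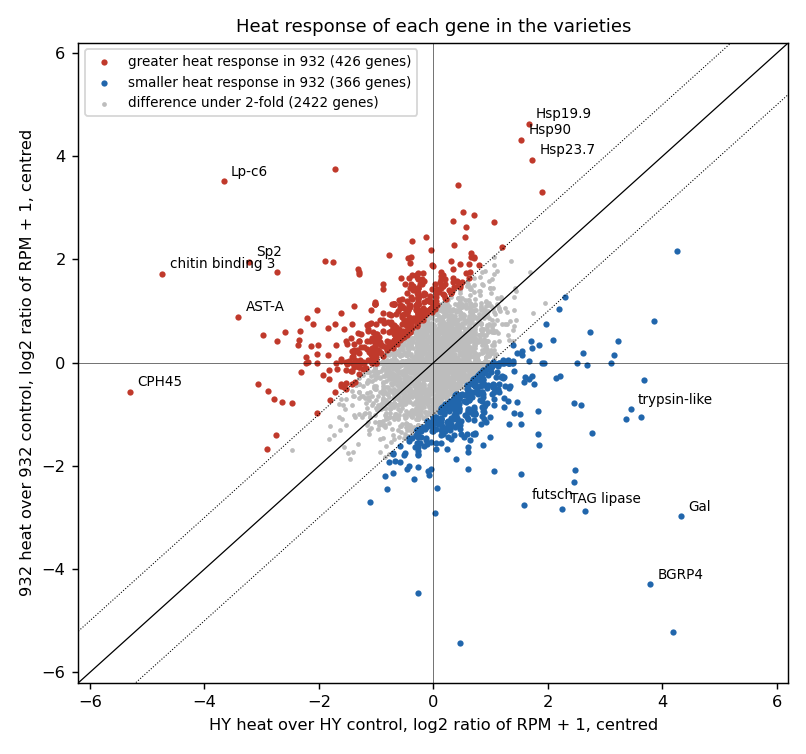
Each point is 1 of 3214 genes, placed by its centred log2 response to heat in HY (x axis) and in 932 (y axis), both of RPM plus 1. Dotted lines mark a 2-fold difference between the responses. The 426 red genes lie above the band and the 366 blue genes below it, and the small heat shock genes and Hsp90 are the labelled red points with positive responses in both varieties.

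The called genes mostly had 1 response past 2-fold and not 2. Among all genes measured, heat in 932 left 300 at least 2-fold higher (9.33%) and 267 lower (8.31%), and heat in HY left 168 higher (5.23%) and 230 lower (7.16%). Of the 426 genes with a greater response in 932, 152 were higher after heat in 932 only, 125 were lower after heat in HY only, and 17 were both. A further 6 were higher in both varieties and 2 lower in both. In the remaining 124 neither response reached 2-fold alone. Of the 366 genes with a smaller response in 932, 137 were lower in 932 only, 80 were higher in HY only, and 18 were both. Of the others 3 were higher in both varieties, 1 was lower in both and 127 had neither response past 2-fold. These classes restate the same 4 values.

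Read across varieties, the same difference is the change that heat made to the ratio of 932 over HY. That ratio, centred on its median gene, was at least 2-fold either way for 915 genes under control (28.5%) and for 896 after heat (27.9%). Genes with a greater response in 932 were apart after heat only in 169 cases (39.7%) and under control only in 100 (23.5%), beside 13.8% and 14.4% of all genes measured. Genes with a smaller response were apart after heat only in 77 cases (21.0%) and under control only in 130 (35.5%). In neither condition were 102 of the greater and 116 of the smaller genes apart, a class that held 57.7% of all genes. Apart from centring, the call is made on the difference between these ratios. The shares of called genes apart in some condition are therefore partly set by the call itself. The varieties were apart in opposite directions in the 2 conditions for 15 of the greater genes and 7 of the smaller ones.

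**Figure D2:**
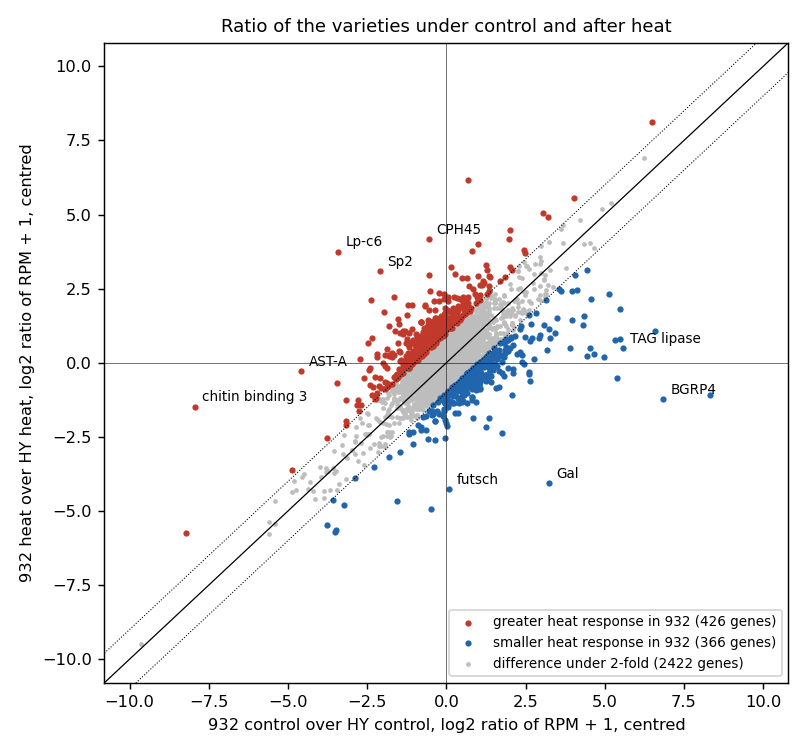
Each point is 1 of 3214 genes, placed by the centred log2 ratio of 932 over HY under control (x axis) and after heat (y axis). Points near the solid line had nearly the same ratio in both conditions. Triacylglycerol lipase lies far right and near 0 in height, apart under control, BGRP4 lies far right and at -1.22 in height, apart in opposite directions, and CPH45 lies near 0 on the x axis and high on the y axis, apart after heat.

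The library farthest from the median of the other 3 was found for each gene. Among genes with a smaller response in 932 it was 932 control, as the high value, for 144 of 366 (39.3%). Over all genes measured 932 control was farthest, high or low, for 29.7%, and as the high value for 15.8%. Among genes with a greater response it was 932 heat, as the high value, for 142 of 426 (33.3%). Over all genes 932 heat was farthest, high or low, for 23.8%, and as the high value for 12.9%. HY heat was the low value for 116 of the greater genes (27.2%) and HY control the high one for 79 (18.5%). Over all genes HY heat was farthest, high or low, for 26.8%, and as the low value for 13.4%. For HY control these shares were 19.6% and, as the high value, 10.4%. Among called genes the call itself fixed the direction in which the farthest library stood. Each of these patterns rests on 1 library, and whether that library or its group stands apart cannot be told.

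**Figure D3:**
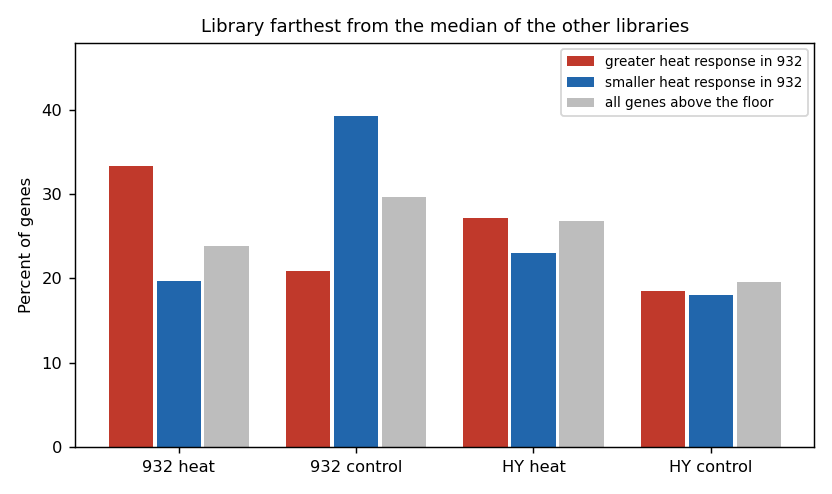
Bars give the percent of genes (y axis) for which each library (x axis) lay farthest from the median of the other 3, for genes with a greater response in 932, a smaller response in 932, and all 3214 genes. The tallest bar is 932 control among genes with a smaller response, at 39.3%.

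Genes with a smaller response held more of the listed RPM in every library than genes with a greater one. Their share was 19.4% in 932 heat, 34.8% in 932 control, 22.7% in HY heat and 11.3% in HY control. The genes with a greater response held 8.5% in 932 heat, 4.4% in 932 control, 4.8% in HY heat and 9.6% in HY control. How these shares differ between libraries is partly set by the call itself. They are shares of tags and not of transcripts, since RPM is uncorrected for length. A single triacylglycerol lipase gene, described next, held 22885 of the 64842 RPM of the first set in 932 control.

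Counts in the gene lists that follow are read against 13.3% greater and 11.4% smaller over all genes, and no list was tested. Which library is highest or lowest among called genes is partly set by the call itself. A smaller call favours high values in 932 control or HY heat and low ones elsewhere, and a greater call the reverse. The share over all called genes was not counted, so these counts describe the listed genes only. Digestive lipases, which split dietary fats, had smaller responses in 932 in 7 of 13 measured genes and greater ones in 2, with a median difference of -1.25. All 7 intervals lay past 2-fold. The triacylglycerol lipase BGIBMGA010400 had 3229 RPM in 932 heat, 22885 in 932 control, 2713 in HY heat and 470.4 in HY control. The heated libraries were close together and the controls far apart, with a difference of -5.08 [-5.14 to -5.02]. In the other 6 genes the 932 libraries lay within 2-fold of each other, except in the acidic lipase BGIBMGA011777. Insect intestinal lipase 6 (BGIBMGA002669) had 2200.4 RPM in 932 heat, 1263 in 932 control, 1075 in HY heat and 60.7 in HY control, a difference of -3.05. The neutral lipase BGIBMGA001507 had 30.5 RPM in 932 heat, 38.9 in 932 control, 25.1 in HY heat and 0.69 in HY control, a difference of -4.02. The acidic lipase BGIBMGA010639 had 451 RPM in 932 heat, 405 in 932 control, 694 in HY heat and 63.8 in HY control, a difference of -3.0. HY control was thus the lowest library in all 7 genes. A pancreatic lipase-like gene (BGIBMGA011895) went the other way, with 44.4 RPM in 932 heat, 35.0 in 932 control, 24.5 in HY heat and 108 in HY control, and HY control was its highest library.

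Serine proteases of the trypsin and chymotrypsin type, the main endopeptidases of the alkaline midgut, had smaller responses in 10 of 26 genes and greater ones in 5, with a median of -0.28. In all 10 the highest library was 932 control, and in 8 the lowest was HY control. The trypsin-like proteinase BGIBMGA003605 had 803 RPM in 932 heat, 1500 in 932 control, 768 in HY heat and 57.4 in HY control. HY control stood far below the rest, and the difference was -4.35 [-4.54 to -4.20]. A protease named after the silk gland (BGIBMGA004445) had 43.9 RPM in 932 heat, 92.4 in 932 control, 29.1 in HY heat and 1.03 in HY control, a difference of -4.68. Serine protease 36 (BGIBMGA008515) had 63.0 RPM in 932 heat, 112 in 932 control, 52.3 in HY heat and 6.38 in HY control, a difference of -3.40. Serine protease 13 (BGIBMGA009527) was listed at 0 in HY control and had 6.0 RPM in 932 heat, 15.0 in 932 control and 2.00 in HY heat. The trypsin BGIBMGA001320 was lower after heat in both varieties, with 168 RPM in 932 heat, 534 in 932 control, 20.2 in HY heat and 130.2 in HY control, and its difference was 1.24 [0.99 to 1.60].

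Aminopeptidases and carboxypeptidases, which trim peptides from their ends, had greater responses in 10 of 27 genes and smaller ones in 5, with a median of 0.71. In 9 of the 10 the lowest library was HY heat. The carboxypeptidase BGIBMGA004830 had 1287 RPM in 932 heat, 705 in 932 control, 161 in HY heat and 619 in HY control. The controls were close and the heated libraries far apart, with a difference of 3.07 [2.96 to 3.20]. The carboxypeptidase BGIBMGA004798 had 15.6 RPM in 932 heat, 10.4 in 932 control, 1.5 in HY heat and 15.4 in HY control, so that HY heat alone was low, a difference of 3.52. Midgut carboxypeptidase A1 (BGIBMGA009478) went the other way, with 50.1 RPM in 932 heat, 44.0 in 932 control, 12.7 in HY heat and 0.86 in HY control, a difference of -2.42. Putative carboxypeptidase A (BGIBMGA004801) had 2.75 RPM in 932 heat, 5.38 in 932 control, 25.6 in HY heat and 7.07 in HY control, a difference of -2.22. Peptidase genes at both ends of the list therefore differed in which library stood apart.

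Genes of carbohydrate digestion had greater responses in 4 of 18 and smaller ones in 2, with a median of 0.28 and a mean of -0.05. The lowest member was Gal (BGIBMGA006815), a beta-galactosidase that cleaves galactosides. Gal had 8.06 RPM in 932 heat, 70.4 in 932 control, 176.5 in HY heat and 6.38 in HY control. High and low libraries swapped between the varieties, and the difference was -7.29 [-8.32 to -6.97]. Trehalase (BGIBMGA005664), which splits the blood sugar trehalose, had 179 RPM in 932 heat, 54.4 in 932 control, 203 in HY heat and 149 in HY control. Only 932 control was low, and the difference was 1.52 [1.32 to 1.76]. A maltase (BGIBMGA006066) had 7.21 RPM in 932 heat, 4.24 in 932 control, 0.33 in HY heat and 2.24 in HY control, a difference of 2.20.

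Genes of the peritrophic matrix and of chitin had smaller responses in 8 of 15 and greater ones in 2, with a median of -1.80. IIM1 (BGIBMGA001480), an intestinal mucin of the matrix, had 39.0 RPM in 932 heat, 168 in 932 control, 26.5 in HY heat and 3.10 in HY control, a difference of -4.56 [-5.75 to -4.19]. Peritrophin 1 (BGIBMGA001504), a chitin-binding matrix protein, had 12.9 RPM in 932 heat, 60.9 in 932 control, 3.66 in HY heat and 0.34 in HY control, a difference of -3.69. In both the heated library was the lower one in 932 and the higher one in HY. The peritrophic membrane chitin binding protein BGIBMGA001491 had 1982 RPM in 932 heat, 6170.4 in 932 control, 5774 in HY heat and 3129 in HY control, and there 932 heat was the lowest library. Its difference was -2.25. Chitin synthase B (BGIBMGA002960), which makes the chitin of the gut, had 3.60 RPM in 932 heat, 11.4 in 932 control, 8.82 in HY heat and 3.10 in HY control, a difference of -2.42. The exception at the other end was the chitin binding domain 3 protein BGIBMGA009067, with 4.46 RPM in 932 heat, 0.65 in 932 control, 17.0 in HY heat and 395 in HY control. HY control was far above the rest there, and the difference was 6.46 [6.01 to 9.58].

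V-ATPase subunits, parts of the proton pump that energises the midgut membrane, had smaller responses in 5 of 12 genes and greater ones in none, with a median of -0.91. In all 5 the highest library was 932 control, and 2 of the 5 intervals lay past 2-fold. Accessory subunit S1 (BGIBMGA014403) had 32.4 RPM in 932 heat, 159 in 932 control, 46.5 in HY heat and 48.5 in HY control, a difference of -1.93 [-2.30 to -1.62]. The 3 other libraries lay close together. Subunit G (BGIBMGA013678) missed 2-fold narrowly at -0.97, with 622 RPM in 932 heat, 2196 in 932 control, 498 in HY heat and 742 in HY control. Subunits F and VATPc had differences of 0.88 and 0.95, so the subunits did not share 1 value. The summed level of the pump genes was 729.8 RPM in 932 heat, 2610.4 in 932 control, 612 in HY heat and 891 in HY control.

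Genes of the mitochondrial respiratory chain and ATP synthase had smaller responses in 7 of 34 and greater ones in 3, with a median of -0.48. Again 932 control was the highest library in all 7. Of these 7 intervals 1 lay past 2-fold, and none of the 3 greater ones did. Mitochondrial cytochrome c (BGIBMGA009012), the electron carrier between complexes of the chain, had 30.5 RPM in 932 heat, 204 in 932 control, 39.5 in HY heat and 71.4 in HY control. It was lower after heat in both varieties and more so in 932, a difference of -1.59 [-1.95 to -1.28]. The other 3 named genes, 2 NADH dehydrogenase subunits and cytochrome c oxidase polypeptide Vb, had differences between -1.20 and -1.18. Glycolysis and citrate cycle genes had 5 smaller and 1 greater of 23, with a median of -0.19 that was 0.19 with a floor of 10 RPM, and none of their intervals lay past 2-fold. Lactate dehydrogenase Ldh (BGIBMGA012336), which regenerates NAD when oxygen is short and was in no list, had 15.8 RPM in 932 heat, 3.75 in 932 control, 4.16 in HY heat and 9.66 in HY control. Its difference was 3.14 [2.54 to 4.59].

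**Figure D4:**
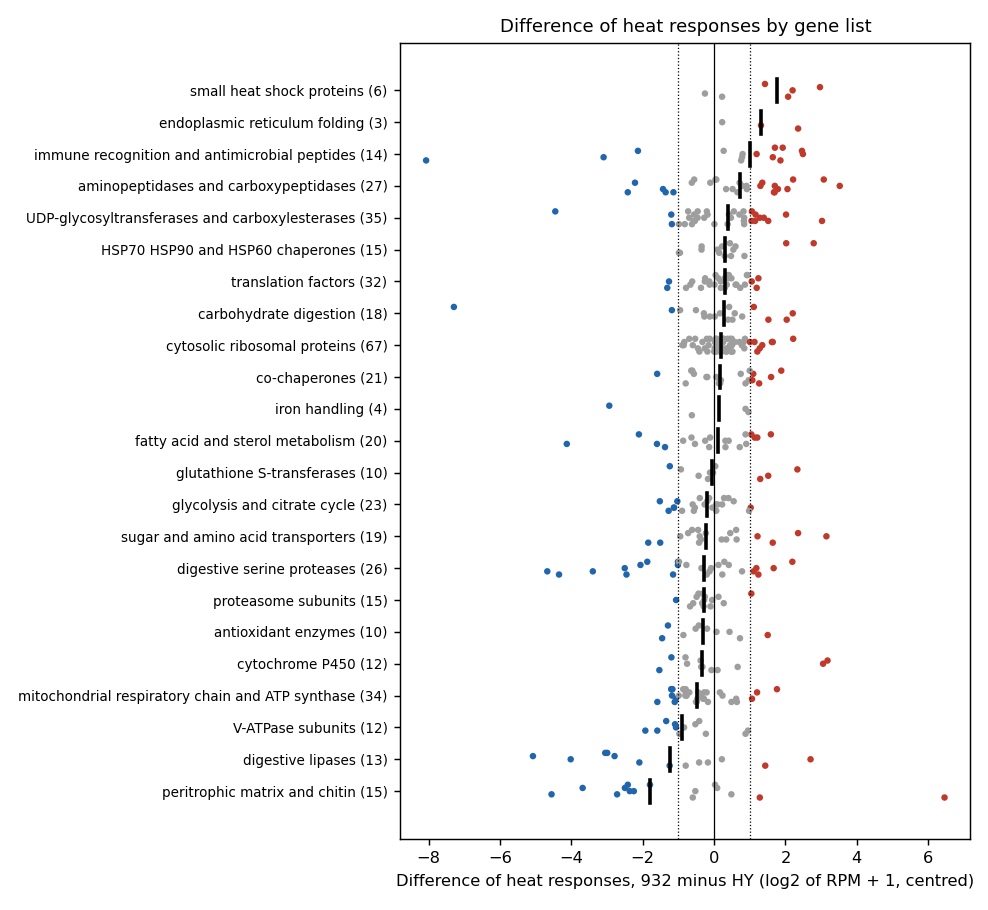
Each point is a gene above the 1 RPM floor in 1 of 23 lists (number in brackets), placed by its difference of heat responses (x axis, 932 minus HY), and the black bar is the median of the list. Red points are at least 2-fold greater in 932 and blue points at least 2-fold smaller. Small heat shock proteins stand at the top with a median of 1.75 and peritrophic matrix genes at the bottom with -1.80, and without centring each point lies 0.27 lower, which takes the medians of co-chaperones, ribosomal proteins, iron handling and fatty acid metabolism below 0.

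Small heat shock proteins, which hold unfolding proteins in solution, had greater responses in 4 of 6 genes and smaller ones in none, with a median of 1.75 beside 0.02 over all genes. The median was 0.84 over the genes above 0 in every library and 0.70 with 10 added in place of 1, and 1 of the 4 intervals lay past 2-fold. Hsp23.7 (BGIBMGA004515) had 210.3 RPM in 932 heat, 12.9 in 932 control, 12.7 in HY heat and 2.41 in HY control. The heated library was the higher one in both varieties, and the difference was 2.20 [0.91 to 2.82]. Hsp19.9 (BGIBMGA004540) had 43.9 RPM in 932 heat, 0.81 in 932 control and 2.83 in HY heat and was listed at 0 in HY control, so its difference of 2.97 rests on the added 1, and its interval had an upper end of 4.54 and no lower end. The small heat shock protein BGIBMGA005755 had 47.7 RPM in 932 heat, 14.8 in 932 control, 15.7 in HY heat and 11.0 in HY control, with only 932 heat apart and a difference of 1.43. Heat shock protein 25.4 (BGIBMGA005781) was listed at 0 in 932 control and had 2.23 RPM in 932 heat, 2.00 in HY heat and 2.24 in HY control, so its 3 other libraries were alike. It was named after its values were seen, as the gene whose interval lay past 2-fold. That interval takes the value listed at 0 as 0 tags. The lowest value above 0 was 2 tags in each library, so a listed 0 may stand for 1 tag. Heat shock protein 1 (BGIBMGA004103) had 356 RPM in 932 heat, 346 in 932 control, 296 in HY heat and 199 in HY control. Its difference was -0.26 [-0.40 to -0.12], so members of the list differed.

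The larger chaperones of the HSP70, HSP90 and HSP60 families, which refold proteins with ATP, had greater responses in 2 of 15 genes, the same 13.3% as over all genes, and smaller ones in none, with a median of 0.30 that was 0.03 without centring and 0.08 with 10 added. Hsp90 (BGIBMGA004612) had 35.2 RPM in 932 heat, 0.81 in 932 control, 16.3 in HY heat and 3.97 in HY control. Its difference was 2.79 [2.17 to 5.45], and 932 control was the lowest library while both heated libraries were above both controls. Heat shock protein 70-3 (BGIBMGA007950) had 39.8 RPM in 932 heat, 13.2 in 932 control, 10.3 in HY heat and 12.2 in HY control, with 932 heat alone high and a difference of 2.02 [1.47 to 2.75]. Heat shock protein 70-14 (BGIBMGA006574) had 6.52 RPM in 932 heat, 6.19 in 932 control, 15.3 in HY heat and 5.52 in HY control, with HY heat alone high and a difference of -0.99. Heat shock protein 90 beta (BGIBMGA012753) had 298 RPM in 932 heat, 193 in 932 control, 162 in HY heat and 132 in HY control, a difference of 0.60 [0.42 to 0.78].

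Co-chaperones, which steer the larger chaperones, had greater responses in 5 of 21 genes and a smaller one in 1, with a median of 0.17 that was -0.10 without centring. Without centring 2 were greater and 2 smaller, and 1 of the 5 greater intervals lay past 2-fold. An hsp70 binding protein (BGIBMGA013070) had 40.7 RPM in 932 heat, 6.68 in 932 control, 9.66 in HY heat and 5.00 in HY control, a difference of 1.88 [1.06 to 2.78]. Cdc37 (BGIBMGA010245), which hands protein kinases to HSP90, had 22.8 RPM in 932 heat, 12.7 in 932 control, 3.16 in HY heat and 5.00 in HY control, a difference of 1.60. Of 3 genes of folding in the endoplasmic reticulum, calreticulin (BGIBMGA000475), a calcium-binding chaperone of glycoproteins, had 19.4 RPM in 932 heat, 15.2 in 932 control, 2.33 in HY heat and 10.2 in HY control. HY heat was its lowest library, and the difference was 2.35 [1.78 to 3.79]. Pdi (BGIBMGA011844), which forms disulfide bonds, had a difference of 0.23 with values of 8.06 to 10.2 RPM in all libraries.

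Cytosolic ribosomal proteins had greater responses in 8 of 67 genes (11.9%, near the 13.3% over all genes) and smaller ones in none, and their median of 0.20 was -0.07 without centring. Without centring 5 were greater and 3 smaller. Among the 8 genes, 932 control was the lowest library in 7. RpSA (BGIBMGA007311), a protein of the small subunit, had 23.0 RPM in 932 heat, 6.68 in 932 control, 22.5 in HY heat and 27.9 in HY control, a difference of 2.22 [1.74 to 3.01]. RpS12 (BGIBMGA004374) was the gene of the 8 with another pattern, 159 RPM in 932 heat, 131 in 932 control, 63.6 in HY heat and 111 in HY control, where HY heat was low. Translation factors had 3 greater and 2 smaller of 32, with a median of 0.30. Proteasome subunits, which degrade tagged proteins, had 1 greater and 1 smaller of 15, with a median of -0.29.

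Immune recognition and antimicrobial genes had greater responses in 7 of 14 and smaller ones in 3, with a median of 0.99 and a mean of 0.18. The lowest was BGRP4 (BGIBMGA000353), a recognition protein for fungal and bacterial glucans, with 15.4 RPM in 932 heat, 321 in 932 control, 44.1 in HY heat and 1.72 in HY control. Among the controls 932 was the higher variety and among the heated libraries HY was, and the difference was -8.07 [-9.90 to -7.81]. PGRP-S1 (BGIBMGA008038), which binds bacterial peptidoglycan, had 33.8 RPM in 932 heat, 15.2 in 932 control, 32.1 in HY heat and 70.5 in HY control. The heated libraries were alike and the controls apart, and the difference was 2.49 [2.11 to 3.01]. PGRP-S5 (BGIBMGA012866) had 7.72 RPM in 932 heat, 1.14 in 932 control, 553 in HY heat and 619 in HY control. PGRP-S5 is its symbol, while its best hit is named peptidoglycan recognition protein S6. The gene was far higher in HY in both conditions, and its difference was 2.46 [2.03 to 4.59]. The antimicrobial peptide gene Leb3 (BGIBMGA006775) was listed at 0 in both 932 libraries and had 29.0 RPM in HY heat and 1.90 in HY control, so no response in 932 could be read.

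UDP-glycosyltransferases and carboxylesterases, which conjugate or hydrolyse foreign compounds, had 9 greater and 3 smaller of 35, with a median of 0.38 that was 0.11 without centring and -0.03 with 10 added in place of 1. Without centring 5 were greater and 6 smaller. Of the 9 greater calls 1 had its interval past 2-fold, and 16 of the 35 genes were listed at 0 in some library. Integument esterase ie2 (BGIBMGA009544) was listed at 0 in 932 heat and had 1.14 RPM in 932 control, 34.8 in HY heat and 1.90 in HY control. It was high in HY heat only, and its interval had an upper end of -4.11 and no lower end. Among 12 cytochrome P450 genes, oxidases of hormones and toxins, 2 were greater and 2 smaller, with a median of -0.35 and a mean of 0.13. Cytochrome P450 333B11 (BGIBMGA005266) had 46.0 RPM in 932 heat, 12.9 in 932 control, 13.2 in HY heat and 27.8 in HY control, a difference of 3.05 [2.63 to 3.74]. Cyp9a20 (BGIBMGA003945) had 32.9 RPM in 932 heat, 80.5 in 932 control, 6.49 in HY heat and 4.14 in HY control, a difference of -1.54. Glutathione S-transferases had 3 greater and 1 smaller of 10, and GSTo1 and GSTo4, of the same omega class, stood at 2.33 and -1.24.

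Antioxidant enzymes had 1 greater and 2 smaller of 10, with a median of -0.31. Thioredoxin peroxidase (BGIBMGA000064), which removes hydrogen peroxide, had 26.1 RPM in 932 heat, 31.8 in 932 control, 61.3 in HY heat and 21.7 in HY control, with HY heat alone high and a difference of -1.46 [-1.95 to -1.07]. Of 4 genes of iron handling, transferrin (BGIBMGA012221), the iron carrier of the blood, had 1.72 RPM in 932 heat, 19.4 in 932 control, 3.00 in HY heat and 2.24 in HY control. Only 932 control was high, and the difference was -2.94 [-5.20 to -2.11]. The ferritins BGIBMGA008768 and BGIBMGA008780, iron stores, had differences of 0.96 and 0.88. The median of the 4, 0.13, was -0.14 without centring.

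Sugar and amino acid transporters had 4 greater and 2 smaller of 19, with a median of -0.23 that was 0.15 with no floor and 0.06 with a floor of 10 RPM. The amino acid transporter +nsd-2 (BGIBMGA007228) had 48.9 RPM in 932 heat, 71.5 in 932 control, 16.0 in HY heat and 103.5 in HY control, with HY heat alone far down and a difference of 2.35 [2.03 to 2.81]. Genes of fatty acid and sterol metabolism had 4 greater and 4 smaller of 20, and their median of 0.10 was -0.17 without centring and -0.25 with a floor of 10 RPM. A fatty acid binding protein (BGIBMGA012890), which carries fatty acids inside cells, had 7.55 RPM in 932 heat, 21.0 in 932 control, 51.1 in HY heat and 5.35 in HY control. Its difference was -4.13 [-5.24 to -3.70]. The 3-hydroxyacyl-CoA dehydrogenases BGIBMGA007361 and BGIBMGA000511, enzymes of fatty acid breakdown, stood at -1.60 and -1.38.

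**Figure D5:**
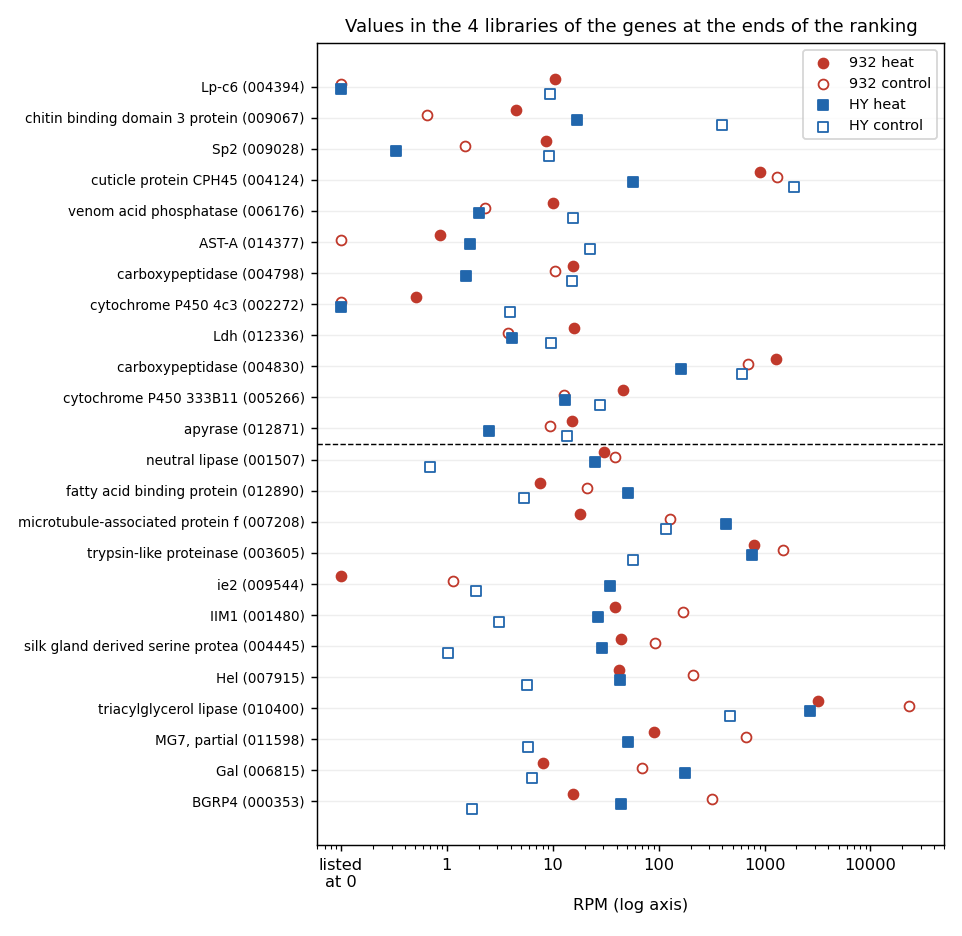
RPM on a log axis (x axis) of the 12 named genes with the highest lower bounds (above the dashed line) and the 12 with the lowest upper bounds of the interval (below it), in 932 heat, 932 control, HY heat and HY control. Values listed at 0 are drawn at the left edge. In most genes below the line the open square, HY control, is the lowest value, as in triacylglycerol lipase at 470.4 RPM.

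Several genes at the upper end are best known from other tissues than the midgut epithelium. Lp-c6 (BGIBMGA004394), a small lipoprotein of the blood made by the fat body, had 10.5 RPM in 932 heat and 9.48 in HY control and was at 0 in the listing for 932 control and HY heat. With 3 tags in place of 0 its difference was at least 8.94. Sp2 (BGIBMGA009028), a storage protein of the same source, had the same pattern, with 8.58 RPM in 932 heat, 1.47 in 932 control, 0.33 in HY heat and 9.31 in HY control, a difference of 5.18 [5.24 to 10.81]. The added 1 put this difference below its interval, and with nothing added it was 7.63. Of 14 fat body markers, 5 were above the floor and summed to 46.2 RPM in 932 heat, 28.0 in 932 control, 35.5 in HY heat and 37.1 in HY control. Of the 5, 3 had a greater response and 1 a smaller one. The greater gene besides Lp-c6 and Sp2 stayed below 3 RPM in every library, was listed at 0 in some library, and set the list median. The smaller one was an apolipophorin precursor (BGIBMGA013342), with 2.75 RPM in 932 heat, 3.42 in 932 control, 9.99 in HY heat and 4.14 in HY control. Its difference was -1.06. Apolipophorin III (BGIBMGA013108), a lipid carrier of the blood, had 23.2 RPM in 932 heat, 23.1 in 932 control, 25.1 in HY heat and 13.5 in HY control, a difference of -0.58. Arylphorin and a partial vitellogenin, further markers of fat body, were listed at 0 in every library. Over the list the median was 2.17, or -0.57 over the genes above 0 in every library. Whether fat body attached to the gut differed between the libraries was not tested, and in bulk tissue fewer cells of a type and less RNA per cell cannot be told apart.

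Cuticle proteins, which line foregut, hindgut and trachea as well as skin, had greater responses in 5 of 8 genes and smaller ones in none, with a median of 1.49 that was -0.18 with no floor. Of the 5 greater calls, 3 had intervals past 2-fold. CPR70 (BGIBMGA010143) was above 0 only in 932 heat, at 2.06 RPM, and CPG42 (BGIBMGA011423) only in HY control, at 2.41 RPM. Their intervals had no ends. CPH45 (BGIBMGA004124) had 896 RPM in 932 heat, 1322 in 932 control, 57.3 in HY heat and 1902 in HY control. HY heat alone was low, and the difference was 4.74 [4.60 to 4.93]. CPH43 (BGIBMGA005302) had 1227 RPM in 932 heat, 297 in 932 control, 682 in HY heat and 743 in HY control, where 932 control was low, a difference of 2.44 [2.35 to 2.54]. The second CPH43 model (BGIBMGA013778) had 1679 RPM in 932 heat, 1085 in 932 control, 739 in HY heat and 841 in HY control, a difference of 1.09. These models carry 1 name and may share reads.

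Among gut peptide genes, AST-A (BGIBMGA014377), an allatostatin that slows gut contraction in insects, was listed at 0 in 932 control and had 0.86 RPM in 932 heat, 1.67 in HY heat and 22.4 in HY control. HY control alone was high, and its interval had a lower end of 3.70 and no upper end. AST-C (BGIBMGA005369) had 34.1 RPM in 932 heat, 25.6 in 932 control, 50.8 in HY heat and 36.6 in HY control, a difference of 0.21 [-0.19 to 0.62]. NPF1 (BGIBMGA006281), a feeding-related neuropeptide F gene, had 23.0 RPM in 932 heat and 18.1 in 932 control and was listed at 0 in both HY libraries, which leaves no response to compare.

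Visceral muscle markers had 1 greater and 4 smaller of 20 genes, with a median of -0.13 that was 0.15 with no floor and a summed level of 1168 RPM in 932 heat, 1245 in 932 control, 1582 in HY heat and 1054 in HY control. The greater one was a putative myosin IA (BGIBMGA014236) at 2.72. It entered by the word myosin in its name, which does not make it a muscle gene. Muscle LIM protein (BGIBMGA001202) had 206 RPM in 932 heat, 314 in 932 control, 398 in HY heat and 219 in HY control, a difference of -1.19 [-1.34 to -1.05]. The futsch homologue BGIBMGA007208, which names a microtubule protein of fly neurons, had 18.2 RPM in 932 heat, 128 in 932 control, 432 in HY heat and 118 in HY control. The controls were alike and the heated libraries far apart, with a difference of -4.34 [-4.75 to -4.09].

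Further named genes at the lower end were MG7 and Hel. MG7 (BGIBMGA011598) had 91.3 RPM in 932 heat, 672 in 932 control, 51.0 in HY heat and 5.86 in HY control, a difference of -5.52 [-6.30 to -5.19]. Hel (BGIBMGA007915), named after a hatching enzyme, had 42.2 RPM in 932 heat, 212 in 932 control, 43.1 in HY heat and 5.69 in HY control, a difference of -4.75 [-5.58 to -4.41]. In both the controls were far apart and the heated libraries closer, as in triacylglycerol lipase. At the upper end an acid phosphatase (BGIBMGA006176) had 10.1 RPM in 932 heat, 2.28 in 932 control, 2.00 in HY heat and 15.5 in HY control, a difference of 4.49 [4.07 to 6.72]. A putative apyrase (BGIBMGA012871), an enzyme that cleaves ATP and ADP, had 15.1 RPM in 932 heat, 9.45 in 932 control, 2.50 in HY heat and 13.6 in HY control, a difference of 2.96 [2.42 to 4.42]. The lowest difference of all genes, -9.40 [-12.65 to -9.30], belonged to BGIBMGA007733, whose best hit has no product name. It had 13.9 RPM in 932 heat, 551 in 932 control, 36.1 in HY heat and 0.69 in HY control, again with the controls farthest apart.

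Few called genes had both responses past 2-fold in the same direction. Acidic lipase BGIBMGA011777 was higher after heat in both, with 71.9 RPM in 932 heat, 15.3 in 932 control, 38.0 in HY heat and 0.69 in HY control, and the response was the smaller one in 932, at -2.10 [-5.20 to -1.84]. The aminopeptidase P-like gene BGIBMGA001640 was lower after heat in both, with 18.7 RPM in 932 heat, 50.8 in 932 control, 0.67 in HY heat and 8.28 in HY control. Its difference of 1.35 turned to -0.23 with 10 added in place of 1, so its direction was not settled.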

How the data were processed

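Midgut RNA was sequenced by a standard Illumina protocol, per the labels. The authors' deposited table gives 1 value per gene model and library, called normalized TPM per the file headers. The values behave as RPM: the deposited values are whole tags, within 0.0051 RPM, at the totals given above, and the lowest above 0 is 2 tags. A value listed at 0 may therefore be 0 or 1 tag, and the intervals take it as 0. For aligner, counter and build: not given in the sources used here. Names are those of the best protein hit, with symbols from RefSeq (475 models). Of the 116 genes described by the naming rule, 24 share a product name with another model, and reads between such copies may be split. Named were the 12 genes at each end by counting interval with at least 3 RPM, up to 4 per list, and 4 per class of opposite or shared response. Lists were set by product name and trimmed on names. Members and lists were chosen with earlier results of these data known. Each library entered by its variety and stress labels. The calculation was tested on simulated data. Alternatives were other scalings, added values, floors, a 4-fold rule and list means. The work used scipy 1.17.1, numpy 2.4.6 and pandas 2.3.3 under Python 3.11.15, with matplotlib 3.10.9 for plots.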

Additional observations from a re-analysis of the deposited data

Results flagged for a closer look

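In 21 named genes the heat responses of the varieties were past 2-fold in opposite directions. The difference between the responses was not tested, because each response is the ratio of 2 libraries. Higher after heat in 932 and lower in HY were Lp-c6 (BGIBMGA004394) with a difference of 7.18, the chitin binding domain 3 protein (BGIBMGA009067) with 6.46, Sp2 (BGIBMGA009028) with 5.18 and the acid phosphatase BGIBMGA006176 with 4.49. The same direction held for Ldh (BGIBMGA012336) with 3.14, cytochrome P450 333B11 (BGIBMGA005266) with 3.05, the esterase CXE14 (BGIBMGA007546) with 3.02 and PGRP-S1 (BGIBMGA008038) with 2.49. Other models named P450 333B11 stood at -0.36 and -0.76, and another model named CXE14 (BGIBMGA007547) at -0.70.

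Lower after heat in 932 and higher in HY were serine protease 13 (BGIBMGA009527) at -2.51, insect intestinal mucin 3 (BGIBMGA009641) at -2.72, peritrophin 1 (BGIBMGA001504) at -3.69 and the fatty acid binding protein BGIBMGA012890 at -4.13. Further members were the futsch homologue (BGIBMGA007208) at -4.34, ie2 (BGIBMGA009544) at -4.45, IIM1 (BGIBMGA001480) at -4.56, the silk gland derived protease BGIBMGA004445 at -4.68 and Hel (BGIBMGA007915) at -4.75. The lowest were triacylglycerol lipase (BGIBMGA010400) at -5.08, MG7 (BGIBMGA011598) at -5.52, Gal (BGIBMGA006815) at -7.29 and BGRP4 (BGIBMGA000353) at -8.07. The values for Lp-c6, ie2 and serine protease 13 rest on the added 1, since each has a library listed at 0. The added 1 also drew other values with low RPM toward 0. With nothing added, Sp2 stood at 7.63, insect intestinal mucin 3 at -4.65 and peritrophin 1 at -5.38.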

How the results depend on the processing

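Against 426 greater and 366 smaller genes (53.8% greater), no centring gave 260 and 605 (30.1%), median-of-ratios factors 375 and 410 (47.8%), and listed totals less the top 20 genes 404 and 385 (51.2%). With 0.1 added there were 735 and 674, and with 10 added 52 and 102 (33.8%). No floor gave 376 and 501 (42.9%), a floor of 10 RPM 178 and 131 (57.6%), and a 4-fold rule 66 and 58. Intervals past 2-fold in the smaller direction numbered 153 without centring, and intervals past 0 numbered 406 greater and 424 smaller. A called gene lies past 1 log2 unit, so a rescaling of this size could not turn its sign. With 0.1 added 2 called genes changed sign and with 10 added 2, among them BGIBMGA001640 at -0.23. Of 98 called genes named by rule, 38 were under 2-fold with 10 added and 7 without centring. The medians of the fat body list (-0.57 over genes above 0 in every library) and the cuticle list (-0.18 with no floor) turned below 0. In all, 13 of 30 list medians turned sign under some setting, and the other 11 lay between -0.35 and 0.38 as reported. Among these, transporters turned to 0.15 and visceral muscle to 0.15 with no floor, and glycolysis to 0.19 and fatty acid metabolism to -0.25 with a floor of 10 RPM. No library could be left out. No paired analysis was possible because each group has 1 library. Depth limits genes below 1 RPM most, where the median interval spans 7.21 log2 units, against 0.29 from 100 RPM on.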
